A study of Homo sapiens with 24 samples.

Results

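The genes described here are the zinc finger genes of the ZNF series that K562 cells express. They were chosen as protein-coding genes whose symbol is ZNF followed by a number and at most 1 letter, without ZNF628, and whose RNA averaged at least 10 CPM (the count over the library's total, times 1000000) in the 2 control libraries of day 0. They were thus selected on their RNA level in those 2 libraries. The rule found 252 members among 507 protein-coding ZNF genes, in tables of 57992 genes. The other 255 ZNF genes lay under 10 CPM. Members were 2.84% of the 8885 protein-coding genes at 10 CPM or more.

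Most ZNF proteins bind DNA through rows of C2H2 fingers, each of which holds a zinc ion and contacts a few bases. A large share of them also carry a KRAB domain, which recruits the corepressor TRIM28 and with it the histone methyltransferase SETDB1, and many such proteins silence transposable elements. The KRAB genes arose by repeated duplication and lie in clusters, above all on chromosome 19. The ZNF symbol also covers proteins with other work, among them ZNF598, the E3 ligase that recognises collided ribosomes, ZNF207 of the kinetochore and spindle, the SUMO ligase ZNF451, and ZNF622, a factor of the maturing large ribosomal subunit.

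K562 is an established line from a chronic myelogenous leukaemia with erythroid and megakaryocytic traits. All cells carried a CRISPR interference system that doxycycline at 50 ng/ml switches on, with either sgDDX3, the guide against the RNA helicase gene DDX3X, or the control guide sgGal4. DDX3X protein acts in the scanning of mRNA leaders during translation initiation. Cytosolic RNA and ribosome footprints (mRNA pieces protected by ribosomes) were sequenced at days 0, 3 and 14, and each combination of guide, day and assay has 2 libraries, 24 in all. The labels name doxycycline for the day 0 samples too and do not say whether those cells had received it, nor whether a line was 1 clone. They do not say that the 2 replicates were separate cultures, so a p-value weighs a difference only against the scatter of these libraries, and that scatter may be technical.

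The total count was between 1.03e+07 and 4.33e+07 in RNA and between 6.22e+06 and 1.52e+07 in footprints. DDX3X RNA was at 39.3 and 33.3 CPM of the total count with sgDDX3 at day 3, against 188 and 175 CPM with sgGal4. At day 14 it was at 135 and 101 CPM against 201 and 188 CPM, so the knockdown was shallower then, and at day 0 it was at 172 and 185 CPM against 212 and 199 CPM. Of 16 K562 markers 14 had a median over 10 CPM in RNA, while HBG1 (0.168 CPM) and HBE1 (1.29 CPM) did not. Of 18 markers of other cell types 12 were under 1 CPM, MS4A1 and COL1A2 were at 0 in every RNA library, and EPCAM (29.1 CPM), KRT8 (57.4 CPM) and KRT18 (97.3 CPM) were over 10.

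The members were genes of low to middling RNA level. CPM values here carry TMM factors (a trimmed mean that corrects for library make-up) and are not divided by gene length, except that the rule used CPM of the total count. By the rule's value the median member was at 27.8 CPM (quartiles 17.5 and 46.1), against 45.5 CPM over all protein-coding genes at 10 CPM or more, and 84 members were under 20 CPM while 18 reached 100 CPM. The highest were ZNF595 (471 CPM), ZNF207 (269 CPM), ZNF121 (220 CPM), ZNF451 (197 CPM) and ZNF609 (196 CPM). The members just inside the threshold were ZNF586 (10.1 CPM), ZNF71 (10.2 CPM), ZNF75D (10.6 CPM), ZNF181 (10.6 CPM) and ZNF771 (10.9 CPM). ZNF215 (9.95 CPM), ZNF517 (9.88 CPM) and ZNF225 (9.71 CPM) fell just under it. All members together took 0.983% to 1.07% of the counts of an RNA library and 0.502% to 0.535% of those of a footprint library.

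On the RefSeq map of GRCh38, 99 members (39.3%) lay on chromosome 19, which held 7.10% of the protein-coding genes at 10 CPM or more. Chromosome 7 had 25 members (9.92%), chromosome 16 had 17 and chromosome 1 had 14. Their neighbours are often relatives or antisense transcripts: 135 members overlapped another annotated gene, 53 of them a protein-coding one. Reads of overlapping genes and of near-identical paralogs can be shared between them, and how the authors counted such reads is not given in the sources used here. ZNF580 and ZNF581, for example, overlap each other, as do ZNF768 and ZNF747. The values of single members carry that uncertainty.

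With DDX3X knocked down at day 3, some ZNF mRNAs away from chromosome 19 were higher. ZNF592 (chromosome 15, 84748592 to 84806445), a partner of ZNF687 and ZMYND8 in a nuclear corepressor complex, was at 160 and 167 CPM with sgDDX3 and at 105 and 96.9 CPM with sgGal4. ZNF318 (chromosome 6, 43336070 to 43369647), a nuclear protein needed for IgD expression in B cells, was at 145 and 151 against 92.7 and 89.3 CPM. ZNF768 (chromosome 16, 30524004 to 30532477), which binds a motif within MIR repeats, was at 71.3 and 76.0 against 45.3 and 44.4 CPM. The guides did not overlap in these 3, which the rule for naming members required, and the fitted log2 differences were 0.69 ± 0.07 (SE; adjusted p = 1.09e-06 by edgeR), 0.70 ± 0.07 and 0.71 ± 0.08 (adjusted p = 3.96e-06).

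The same direction was seen in members of lower level. ZNF275 (chromosome X, 153334153 to 153352926) was at 37.8 and 37.7 against 24.5 and 22.3 CPM (0.68 ± 0.09, SE). ZNF148 (chromosome 3, 125225669 to 125375354), a factor that binds GC-rich promoter elements, was at 80.0 and 74.7 against 51.8 and 53.0 CPM (0.57 ± 0.08). ZNF71, a KRAB gene on chromosome 19 (56595302 to 56624486) that sits just above the threshold, was at 16.7 and 19.9 against 10.1 and 10.4 CPM (0.82 ± 0.13). ZNF853 was higher by 0.57 ± 0.10. ZNF436 (21.5 and 16.6 against 13.1 and 11.8 CPM; 0.63 ± 0.12) was higher as well, but without sgDDX3 replicate 1 it no longer passed.

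In the edgeR quasi-likelihood fit, 26 of 252 members were higher (10.3%) and 32 lower (12.7%) at day 3, where 14.1% of all 18287 genes tested passed, 7.68% higher and 6.39% lower. Among protein-coding genes at 10 CPM or more 12.7% were higher and 10.7% lower; this is a set with a higher median level than the members. The members' share of higher calls lay between these shares, and their share of lower calls lay above both. DESeq2 called 24 members higher and 22 lower. The total of 58 called members was 57 without sgDDX3 replicate 1, 29 without sgDDX3 replicate 2, 22 without sgGal4 replicate 1 and 31 without sgGal4 replicate 2. Of the 26 higher members 13 passed in every alternative run, that is with DESeq2, with its size factors, without the low-count filter, with a replicate block, with the newer edgeR fit and without each of the 4 libraries in turn. They were ZNF106, ZNF148, ZNF275, ZNF318, ZNF395, ZNF496, ZNF592, ZNF623, ZNF641, ZNF71, ZNF768, ZNF777 and ZNF853, and of these ZNF71 alone lies on chromosome 19. Of the 32 lower members 0 passed in every alternative. In bulk samples such as these, fewer cells that express a gene and less RNA per cell cannot be told apart.

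**Figure D1:**
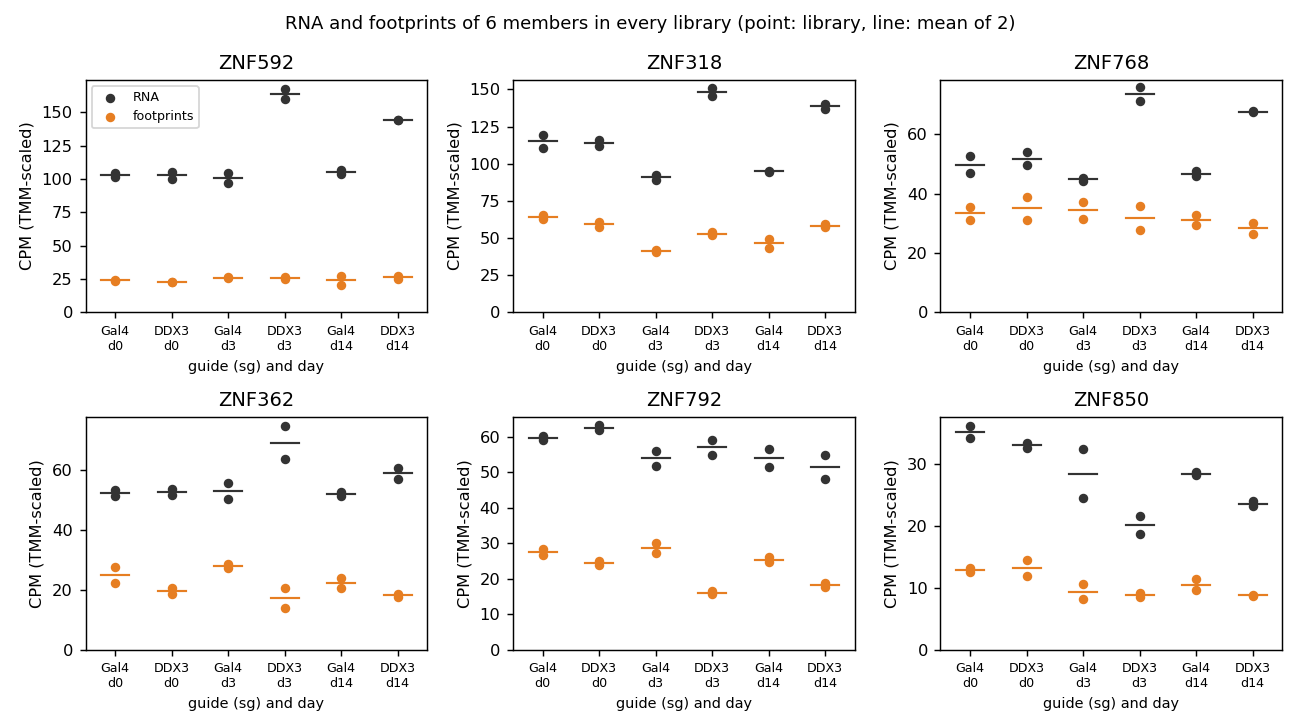
CPM of 6 members in RNA (dark points) and footprints (orange points) for each guide and day, 1 point per library with a line at the mean of 2. RNA of ZNF592, ZNF318 and ZNF768 lies higher with sgDDX3 at days 3 and 14, for example 160 and 167 against 105 and 96.9 CPM for ZNF592 at day 3, while footprints of ZNF792 are lower with sgDDX3 at both days (15.8 and 16.3 against 30 and 27.3 CPM at day 3).

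The members on chromosome 19 leaned lower at day 3. Of 99, 23 were lower (23.2%) and 2 higher (2.02%), with a median log2 difference of -0.21, and 85 lay below 0. Of the 153 members elsewhere 9 were lower (5.88%) and 24 higher (15.7%), with a median of -0.02, and 86 lay below 0. Chromosome 19 has 527 protein-coding genes at 10 CPM or more whose symbols do not start with ZNF, ZFP, ZSCAN, ZKSCAN or ZBTB, called its other genes here. They had 52 lower (9.87%) and 69 higher (13.1%), with a median of -0.02, and the median over all genes tested was -0.01. The difference between these sets was not tested. ZNF genes under 10 CPM that passed the low-count filter had a median of -0.13 (159 genes, 6 lower and 3 higher), and the median was 0.01 in 30 ZBTB genes, -0.02 in 15 ZSCAN and ZKSCAN genes and 0.12 in 7 ZFP genes.

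**Figure D2:**
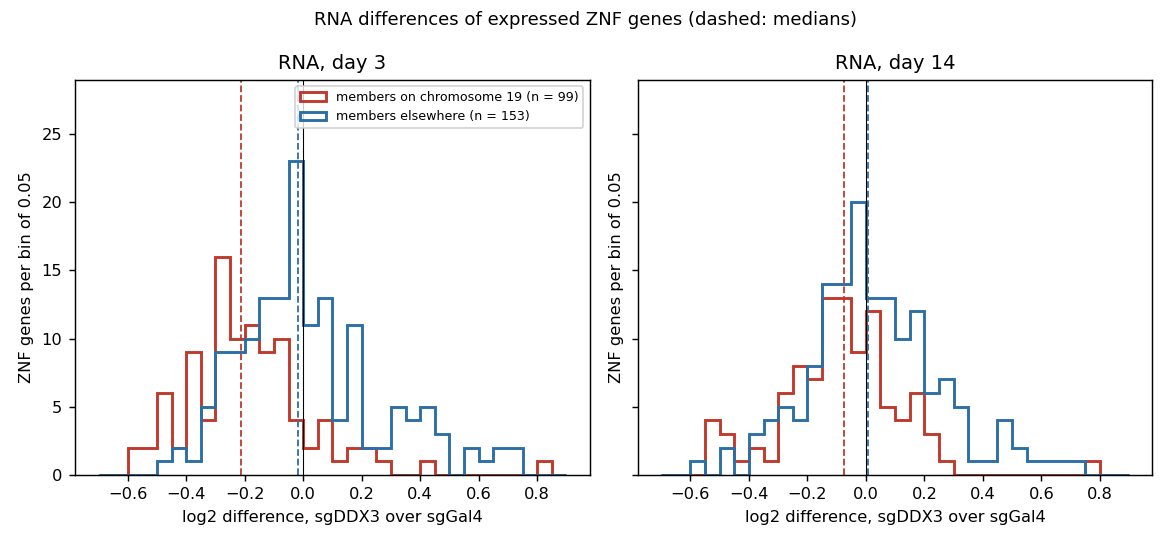
Number of members per bin of 0.05 by log2 difference in RNA (sgDDX3 over sgGal4) at days 3 and 14, for 99 members on chromosome 19 (red) and 153 elsewhere (blue), with dashed lines at the medians. At day 3 the median is -0.21 on chromosome 19 and -0.02 elsewhere; at day 14 it is -0.08 and 0.01.

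The 8 lowest members at day 3 were all on chromosome 19, each at a modest level. ZNF850 (36743480 to 36772807) was at 21.5 and 18.7 CPM with sgDDX3 and at 32.3 and 24.4 CPM with sgGal4, a log2 difference of -0.51 ± 0.11 (SE; adjusted p = 0.00342 by edgeR). ZNF845 (53333749 to 53356906) was at 11.3 and 7.77 against 15.3 and 14.2 CPM (-0.57 ± 0.14), and ZNF226 at 9.05 and 10.4 against 14.5 and 13.3 CPM (-0.55 ± 0.15). ZNF180, ZNF776, ZNF283, ZNF468 and ZNF525 followed, from -0.51 to -0.46. Only members whose groups did not overlap were named, and replicates of 1 guide lay far apart in ZNF845 (sgDDX3) and ZNF850 (sgGal4). Without sgGal4 replicate 1, which was the deepest RNA library, all 8 kept their sign (-0.55 to -0.26) and none passed (edgeR adjusted p from 0.0829 to 0.256). Without sgDDX3 replicate 2 ZNF850 and ZNF226 still passed and the other 6 did not. ZNF226 was lost without sgDDX3 replicate 1, and ZNF180 and ZNF283 without sgGal4 replicate 2.

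How many chromosome 19 members counted as lower rested on single libraries. The count was 23 with all libraries and 15 by DESeq2. It was 24 without sgDDX3 replicate 1, 5 without sgDDX3 replicate 2, 10 without sgGal4 replicate 2 and 0 without sgGal4 replicate 1. In that last fit 22 of the 99 were lower at an unadjusted p under 0.05 by edgeR (DESeq2 was not run on it) and 81 lay below 0. The median stayed below 0 in every leave-out, from -0.33 without sgDDX3 replicate 1 to -0.15 without sgDDX3 replicate 2. For members elsewhere the count of lower genes went from 9 to 12, 5, 2 and 2 in the same order of libraries (sgDDX3 1 and 2, sgGal4 1 and 2), and their median was 0.02 without sgGal4 replicate 1 and 0.00175 without sgDDX3 replicate 2.

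The same lean can be read per library. As the median deviation from the mean of the 12 RNA libraries, on the log2(CPM + 0.5) scale, chromosome 19 members stood at 0.12 and 0.08 with sgGal4 at day 3 and at -0.05 and -0.20 with sgDDX3. At day 0 they stood at 0.12 and 0.09 with sgGal4 and at 0.06 and 0.13 with sgDDX3, so the guides overlapped. At day 14 the sgGal4 libraries themselves were low, at -0.04 and -0.01, and the sgDDX3 libraries were at -0.18 and -0.06. The other protein-coding genes of chromosome 19 were at -0.03 and -0.000738 with sgGal4 at day 3 and at -0.08 and 0.04 with sgDDX3, and at 0.07 and 0.05 against 0.14 and -0.01 at day 14. In the sgDDX3 library of each day where these other genes stood higher (day 3 replicate 2, day 14 replicate 1), the chromosome 19 members stood lower. The part of library make-up in the difference between the guides was not tested. In footprints the values of chromosome 19 members overlapped between the guides at every day.

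**Figure D3:**
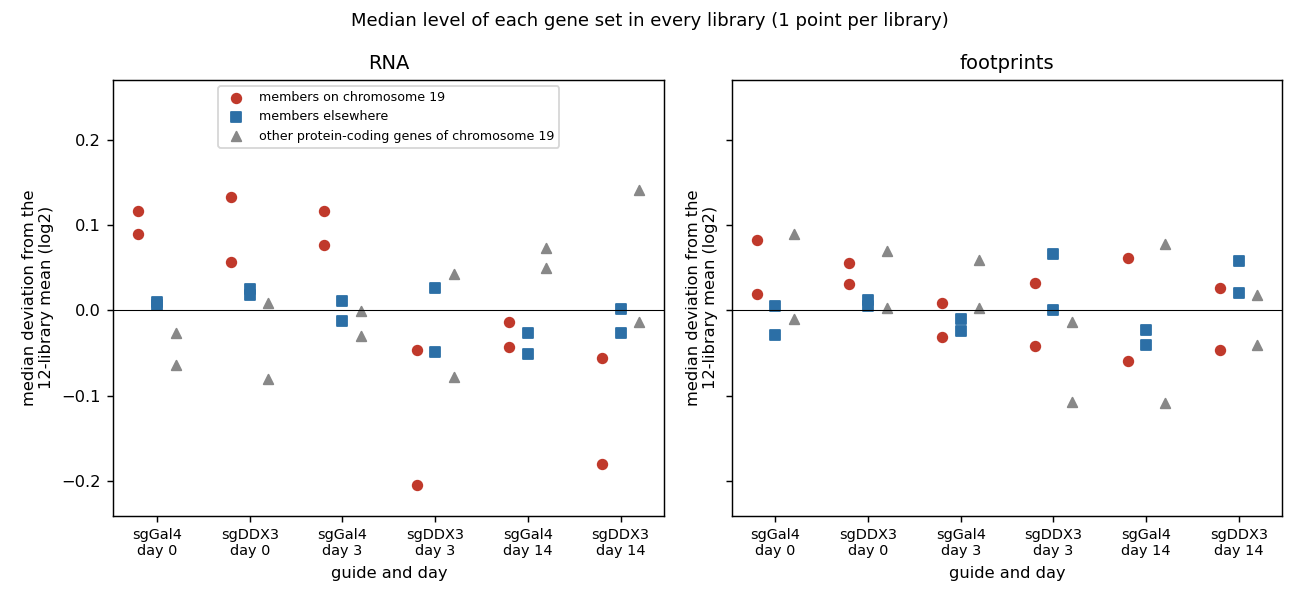
Median log2 deviation of 3 gene sets from their 12-library mean in each library (1 point each), for RNA (left) and footprints (right), by guide and day. Chromosome 19 members (red circles) stand at -0.05 and -0.20 with sgDDX3 at day 3 in RNA, under 0.12 and 0.08 with sgGal4; members elsewhere (blue squares) stay between -0.05 and 0.03 in RNA.

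At day 3 the lean was spread along the chromosome. In windows of 10 Mb of chromosome 19, the day 3 median was -0.21 from 0 to 10 Mb (13 members), -0.06 from 10 to 20 Mb (7 members) and -0.28 from 20 to 30 Mb (11 members). It was -0.18 from 30 to 40 Mb (9 members), -0.28 from 40 to 50 Mb (10 members) and -0.20 from 50 to 60 Mb, where 49 members lay. No window had a median above 0 at day 3. At day 14 the windows from 10 to 20 Mb (0.00686) and from 40 to 50 Mb (0.0206) did, and the other 4 lay between -0.20 and -0.07.

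Sequences just before the start sites are printed for the pair of members with the lowest RNA difference on chromosome 19 and the pair with the highest elsewhere as examples of what lies there. Being picked at the extremes, they do not stand for the groups. RefSeq (GRCh38.p14) had a window for 220 of the 252 members. The window of ZNF768 lies inside the span given above for that gene, before a start that is not its outer end. Each run is the 150 bases before the start, 5′ to 3′ along the gene's strand, at chr19:53333599-53333748 (plus strand), chr19:44164950-44165099 (plus), chr16:30526567-30526716 (minus) and chr6:43369648-43369797 (minus). Capitals mark a match, on either strand, to 1 of 6 short motifs: the GC box GGGCGG, the CCAAT box CCAAT, the ETS core CCGGAA, the YY1 core AAGATGG, the CRE TGACGTCA and the TATA box TATAAA.
ZNF845: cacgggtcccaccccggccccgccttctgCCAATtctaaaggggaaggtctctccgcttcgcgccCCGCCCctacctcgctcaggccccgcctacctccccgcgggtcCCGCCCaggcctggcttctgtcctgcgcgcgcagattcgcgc
ZNF226: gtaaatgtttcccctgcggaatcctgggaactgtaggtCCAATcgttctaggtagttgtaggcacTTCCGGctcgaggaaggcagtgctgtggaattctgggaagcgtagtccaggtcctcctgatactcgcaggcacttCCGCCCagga
ZNF768: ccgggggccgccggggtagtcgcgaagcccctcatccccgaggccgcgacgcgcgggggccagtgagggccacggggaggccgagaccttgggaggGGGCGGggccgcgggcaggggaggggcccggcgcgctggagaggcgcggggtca
ZNF318: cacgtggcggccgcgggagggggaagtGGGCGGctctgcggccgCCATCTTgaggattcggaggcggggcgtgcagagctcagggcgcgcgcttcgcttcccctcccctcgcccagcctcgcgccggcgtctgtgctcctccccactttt

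Both lower members have a CCAAT match in this stretch and neither higher member does, and the GC content was 72.7% in ZNF845, 55.3% in ZNF226, 82% in ZNF768 and 73.3% in ZNF318. Over the full window of 250 bases before the start, the median GC content was 59.2% in the 31 lower members with a window and 72.4% in the 20 higher members, against 65.2% over 7456 protein-coding genes at 10 CPM or more. It was 62.2% in members on chromosome 19 (90 windows) and 63.6% in members elsewhere (130 windows). CCAAT stood in 16 of 31 lower members (51.6%) and 2 of 20 higher members (10%), against 36.1% of the expressed genes and 34.5% of all 15843 protein-coding windows. On chromosome 19, where most of the lower members lie, CCAAT stood in 47.8% of all members with a window, and elsewhere in 39.2%. The ETS core stood in 48.4% of lower and 35% of higher members, against 28.8% of expressed genes and 19.3% of all, and in 41.1% of members on chromosome 19 and 38.5% elsewhere. The GC box stood in 61.3% and 75%, against 70.1% and 56.0%. The YY1 core (6.45% and 5%, against 3.92% of expressed genes and 3.35% of all), the CRE (6.45% and 0%, against 3.49% and 2.32%) and the TATA box (3.23% and 5%, against 4.94% and 9.23%) were rare. These are letter matches and not known sites, and no test was made. The lower calls rest on single libraries as given above.

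At day 14 many of the same members were higher, and the share of higher members was near that of all genes. Of 252 members 21 were higher (8.33%) and 15 lower (5.95%) by edgeR. Of all genes 14.6% passed, 8.44% higher and 6.18% lower. Among protein-coding genes at 10 CPM or more 12.7% were higher and 9.29% lower. ZNF275 was at 33.7 and 34.9 CPM with sgDDX3 and at 20.6 and 20.7 CPM with sgGal4 (0.73 ± 0.09, SE; adjusted p = 2.09e-05 by edgeR). ZNF318 was at 137 and 140 against 94.4 and 95.1 CPM (0.55 ± 0.07), ZNF592 at 145 and 145 against 107 and 104 CPM (0.46 ± 0.07) and ZNF768 at 67.7 and 67.4 against 47.6 and 45.9 CPM (0.54 ± 0.08). ZNF71 (0.77 ± 0.14), ZNF436 (0.68 ± 0.13), ZNF853 (0.62 ± 0.12), ZNF219 (0.55) and ZNF512B (0.49) were higher too, and the ZNF436 call was lost without sgGal4 replicate 2 (0.61). DESeq2 called 18 members higher and 11 lower. Without the low-count filter 16 were higher and 18 lower, so the balance turned.

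Of the members higher at day 3, 17 were higher at day 14 (65.4% of 26, and 81.0% of the 21 at day 14). Of those lower at day 3, 8 were lower at day 14 (25.0% of 32, and 53.3% of 15). No member was called in opposite directions. The RNA contrasts of day 3 and day 14 use different libraries, and over the 252 members their log2 differences had a Pearson r of 0.73 and a Spearman rho of 0.63, 0.55 (Pearson) on chromosome 19 and 0.78 elsewhere. These correlations are across genes, which are not independent replicates. The shares kept between the days and the correlations were not worked out over all genes. Neither is thus shown to be particular to the members. In the test of the change between the days 0 members passed by edgeR, where 0.164% of all genes did (0.082% in each direction), with 17 at an unadjusted p under 0.05 and 0 by DESeq2, and 1 passed without sgDDX3 day 14 replicate 2.

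ZNF595, the member with the highest CPM, was among the few lower ones that stayed in every alternative at day 14. It lies at the end of chromosome 4 (53321 to 88208) and was at 330 and 337 CPM with sgDDX3 and at 456 and 411 CPM with sgGal4 (-0.38 ± 0.07, SE; adjusted p = 0.000742 by edgeR). At day 3 it was at 352 and 336 against 456 and 417 CPM (-0.34 ± 0.07), a call lost without sgGal4 replicate 1 (edgeR adjusted p = 0.0516). ZNF83 on chromosome 19 (38.5 and 41.2 against 54.3 and 52.3 CPM; -0.42 ± 0.09) and ZNF706 (29.1 and 34.8 against 43.5 and 43.9 CPM; -0.45 ± 0.09) also stayed lower at day 14 in every alternative. ZNF595, ZNF83 and ZNF706 are singled out here after their values were seen. ZNF121 was lower at day 3 (-0.33) and day 14 (-0.25), and neither call stayed without sgGal4 replicate 1.

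The lowest member at day 14 was ZNF391 on chromosome 6, at 13.4 and 17.5 CPM with sgDDX3 and at 23.6 and 22.9 CPM with sgGal4 (-0.59 ± 0.13, SE). The call was lost without sgDDX3 replicate 1 (-0.40; adjusted p = 0.0707 by edgeR). ZNF816 (-0.55), ZNF845 (-0.52), ZNF30 (-0.51), ZNF429 (-0.49), ZNF277 (-0.48), ZNF616 (-0.48) and ZNF175 (-0.46) came next, and each lost its call without sgGal4 replicate 2. Over chromosome 19, 9 of 99 members were lower and 1 higher, with a median of -0.08 and 67 below 0. That is 9.09% lower and 1.01% higher, beside 10.2% lower and 13.5% higher (median -0.01) among the other genes of chromosome 19 set out for day 3, and 9.29% lower and 12.7% higher among all protein-coding genes at 10 CPM or more. The share of lower members was thus near the background at day 14. Elsewhere 6 of 153 were lower (3.92%) and 20 higher (13.1%), with a median of 0.01. The total was 16 called members without sgGal4 replicate 2 (12 higher, 4 lower) and 54 without sgDDX3 replicate 2 (19 higher, 35 lower). On chromosome 19 the lower count was 3 without sgDDX3 replicate 1, 18 without sgDDX3 replicate 2, 7 without sgGal4 replicate 1 and 1 without sgGal4 replicate 2.

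ZNF598, the sensor of collided ribosomes, was looked at for its role after its values were seen. Its RNA was at 87.6 and 103 CPM with sgDDX3 and at 71.1 and 77.6 CPM with sgGal4 at day 3 (0.35 ± 0.11, SE; adjusted p = 0.0299 by edgeR), and at 110 and 84.3 against 76.8 and 76.8 CPM at day 14 (0.34 ± 0.11; adjusted p = 0.0384). Neither call was stable: that of day 3 did not pass once sgDDX3 replicate 2 or either sgGal4 library was removed, nor did that of day 14 once sgDDX3 replicate 1 (0.14; edgeR adjusted p = 0.480) or either sgGal4 library was. Its footprints were at 32.2 and 29.2 against 34.2 and 31.7 CPM at day 3, and did not differ beyond that spread. ZNF207 (270 and 245 against 274 and 267 CPM of RNA at day 3; -0.07) and ZNF622 (22.6 and 27.4 against 29.6 and 28.1 CPM; -0.25 ± 0.10, adjusted p = 0.105) did not pass.

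Far fewer members passed in footprints. At day 3, 2 were higher and 2 lower of 251 by edgeR, where 3.8% of all 19780 genes passed, 1.55% higher and 2.25% lower. DESeq2 called 5 members. Without 1 library edgeR called 7 (sgDDX3 replicate 1), 2 (sgDDX3 replicate 2) or 1 (either sgGal4 replicate). ZNF8, with 0.168 to 0.764 CPM of footprints in every library but 23.1 to 33.6 CPM of RNA, was the 1 member under the footprint filter. The spread between replicates was wider in footprints, with a biological coefficient of variation of 9.99% against 6.13% in RNA. In simulated day 3 counts with a true log2 difference of 0.5, the fit recovered 52.6% of changes in RNA and 2.02% in footprints. These changes were set in 192 of 17829 genes in RNA and 198 of 19350 in footprints, drawn from all genes. That is a smaller share than passed in the data, and recovery among the members may differ. At a true difference of 1 the recovered shares were 75.1% and 53.6%. Fewer calls in footprints are thus not shown to mean fewer differences.

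ZNF792, a KRAB gene on chromosome 19 (34956354 to 34964229), had the clearest footprint difference. Its footprints were at 15.8 and 16.3 CPM with sgDDX3 and at 30 and 27.3 CPM with sgGal4 at day 3, a log2 difference of -0.84 ± 0.12 (SE; adjusted p = 0.00213 by edgeR). The day 3 call was kept in every alternative. Its RNA was at 59.1 and 54.8 against 55.9 and 51.8 CPM and did not pass (0.08 ± 0.08; edgeR adjusted p = 0.598). At day 14 its footprints were at 17.7 and 18.8 against 26.0 and 24.7 CPM (-0.47 ± 0.11), a call lost without any 1 of the 4 libraries (-0.52 to -0.43) and by DESeq2. At day 0 they were at 23.7 and 24.8 against 28.4 and 26.7 CPM, a difference in the same direction that did not pass.

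The other 3 footprint calls at day 3 were less stable. ZNF362 was at 20.5 and 13.8 against 27.4 and 28.7 CPM (-0.72 ± 0.17, SE; adjusted p = 0.0348 by edgeR), while its RNA was higher (74.6 and 63.7 against 55.7 and 50.5 CPM; 0.38 ± 0.08). The footprint call rested on sgDDX3 replicate 2 (-0.46 without it) and on both sgGal4 libraries (-0.78 without the first and -0.71 without the second). ZNF512B was at 444 and 216 against 140 and 150 CPM (1.18 ± 0.25), and ZNF652 at 29.9 and 70.1 against 23.5 and 16.7 CPM (1.31 ± 0.32). In both genes 1 sgDDX3 library stood far above the other. Without sgDDX3 replicate 1 the value of ZNF512B was 0.57, and without sgDDX3 replicate 2 that of ZNF652 was 0.54, and neither passed. At day 14, 3 members were higher in footprints and 1 lower of 251, where 3.4% of all genes passed, 2.11% higher and 1.29% lower. They were ZNF853 (97.0 and 123 against 41.9 and 58.8 CPM, 1.13 ± 0.20), ZNF467 (11.9 and 12.7 against 6.92 and 6.79 CPM, 0.84 ± 0.20), ZNF786 (13.1 and 12.3 against 7.42 and 8.62 CPM, 0.67 ± 0.16) and ZNF792. With sgGal4, ZNF853 footprints averaged 82.7 CPM at day 3, so the control was itself lower at day 14. That change was -0.72 ± 0.20 and did not pass (adjusted p = 0.168 by edgeR). The ZNF853 call was lost without sgGal4 replicate 1 (0.91; adjusted p = 0.0732), and those of ZNF467 and ZNF786 without any 1 library. The count at day 14 was 0 without sgGal4 replicate 1 and 1 without any other library, and DESeq2 called 2 members.

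Several members with higher RNA at day 3 had level footprints. ZNF592 footprints were at 26.2 and 24.7 CPM with sgDDX3 and at 26.1 and 25.8 CPM with sgGal4 (-0.03 ± 0.13, SE), ZNF768 at 35.9 and 27.7 against 37.2 and 31.4 CPM (-0.12 ± 0.15), and ZNF71 at 5.87 and 5.00 against 6.28 and 5.26 CPM (-0.11 ± 0.21). ZNF318 footprints were at 54.0 and 51.9 against 40.7 and 42.0 CPM, groups that did not overlap but fell short of the threshold (0.36 ± 0.10; edgeR adjusted p = 0.0584). Over the 26 members higher in RNA the median was 0.44 in RNA and -0.07 in footprints, and 8 of 26 lay above 0 in footprints. The 1099 other protein-coding genes at 10 CPM or more that were higher in RNA had a median of 0.39 in RNA and -0.00197 in footprints, with 549 of 1099 above 0. At day 14 the 21 higher members had a median of 0.45 in RNA and 0.22 in footprints, with 17 above 0, and the 1110 other genes had 0.39 and 0.16, with 795 above 0. These genes were picked for passing in RNA, and their footprints come from separate libraries.

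Members with lower RNA were set beside their footprints in the same way. The 32 lower members at day 3 had a median of -0.38 in RNA and -0.03 in footprints, with 17 below 0, while the 921 other lower genes had -0.36 in RNA and -0.18 in footprints, where 775 of the 920 tested lay below 0. At day 14 the 15 lower members had -0.46 in RNA and -0.17 in footprints, with all 15 below 0, and the 810 other lower genes -0.38 and -0.23, with 746 of the 809 tested below 0. Over the 251 members tested in both assays, the RNA and footprint differences, which come from different libraries, had a Pearson r of 0.09 at day 3 and 0.37 at day 14. The medians of chromosome 19 members in footprints were 0.01 at day 3 and -0.03 at day 14.

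**Figure D4:**
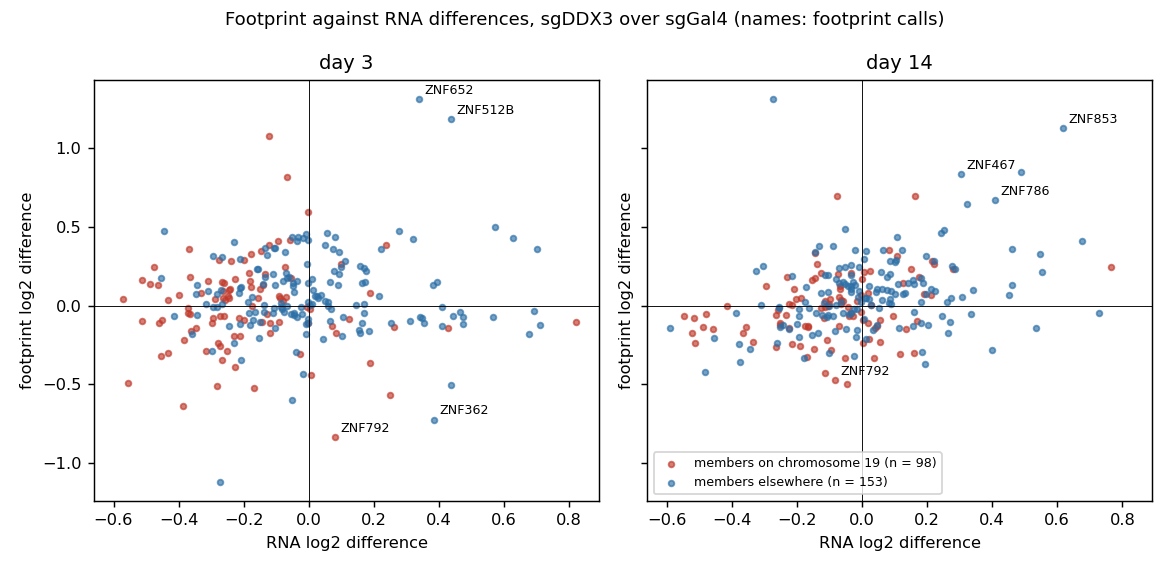
Footprint log2 difference against RNA log2 difference (sgDDX3 over sgGal4) at days 3 and 14, 1 point per member, red for 98 members on chromosome 19 and blue for 153 elsewhere, with the names of members that passed in footprints. At day 3 the points spread along the RNA axis with footprints near 0 (Pearson r 0.09), and at day 14 they tilt upward (r 0.37).

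Translational efficiency sets a gene's footprints against its mRNA, and the fit over both assays tests whether the guides differ in it. At day 3, 11 of 251 members were lower and 2 higher by edgeR, where 5.41% of all 14853 genes passed, 0.532% higher and 4.87% lower. This contrast shares its RNA and footprint libraries with the contrasts above and adds no independent evidence on them. ZNF362 was lowest (-1.13 ± 0.18, SE; adjusted p = 0.000127 by edgeR), with a ratio of footprint to RNA CPM of 0.248 with sgDDX3 and 0.529 with sgGal4. ZNF792 paired level RNA with fewer footprints (-0.94 ± 0.14; ratio 0.282 against 0.532). ZNF592 (-0.75 ± 0.14; ratio 0.156 against 0.258) and ZNF768 (-0.86 ± 0.16; ratio 0.432 against 0.766) paired more RNA with level footprints.

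These 4 and ZNF580 (-0.85 ± 0.17, SE), which shares its locus with ZNF581, were the members lower in efficiency at day 3 in every alternative. ZNF275 (-0.88 ± 0.19), ZNF710 (-0.96 ± 0.20), ZNF71 (-0.96 ± 0.25), ZNF148 (-0.65 ± 0.19), ZNF777 (-0.62 ± 0.14) and ZNF496 (-0.53 ± 0.15) also passed, and each lost its call without sgDDX3 footprint replicate 2. The 2 higher members were ZNF544 (1.19 ± 0.30; footprints 10.7 and 22.4 against 8.80 and 6.93 CPM) and ZNF708 (0.71 ± 0.21), and both were lost without that same library. The count of called members was 6 without sgDDX3 footprint replicate 2 and 20 without sgDDX3 footprint replicate 1. The median over members was 0.11, 0.19 on chromosome 19 (73 of 98 above 0) and 0.06 elsewhere, against 0.03 over all genes tested and -0.06 in the other protein-coding genes of chromosome 19.

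At day 14, 4 members passed in efficiency, where 1.72% of all genes did, 0.39% higher and 1.33% lower. ZNF275 (-0.77 ± 0.19, SE), ZNF768 (-0.67 ± 0.16) and ZNF623 (-0.67 ± 0.16) were lower and ZNF22 (1.61 ± 0.42) higher. ZNF22 rests on few footprints, 3.80 and 3.20 CPM with sgDDX3 against 1.2 and 1.62 CPM with sgGal4. At day 3 the sgGal4 footprints of ZNF22 averaged 3.01 CPM, so the control was itself lower at day 14. No call stayed in every alternative, and 0 members passed without sgDDX3 footprint replicate 1, sgGal4 RNA replicate 1 or sgGal4 RNA replicate 2. The count was 1 without sgDDX3 footprint replicate 2 or sgGal4 footprint replicate 1, and 2 without sgDDX3 RNA replicate 1 or sgGal4 footprint replicate 2.

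In the control cells, ZNF genes had few footprint counts for their RNA counts. As the mean of the sgGal4 ratios of days 3 and 14, the median member had a footprint to RNA ratio of 0.493 (quartiles 0.350 and 0.638), against 0.759 (0.512 and 1.09) over the other protein-coding genes at 10 CPM or more. Of 252 members 218 (86.5%) lay under the other genes' median, and 16 members (6.35%) had a ratio over 1 against 30.5% of the other genes. The median was 0.501 on chromosome 19 and 0.488 elsewhere. Other zinc finger families were near, at 0.375 in ZBTB genes, 0.487 in ZSCAN and ZKSCAN genes and 0.616 in 7 ZFP genes. No test was made of these differences between genes. Nor was it tested whether reads shared between near-identical paralogs were lost more often in 1 assay than in the other. The ratio cancels gene length only where both assays were counted over the same bases: RNA reads fall on untranslated parts too, and the region counted is not given in the sources used here.

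The gap held at each RNA level. Between 10 and 20 CPM of RNA the median ratio was 0.529 in members and 0.814 in other genes, and between 20 and 50 CPM it was 0.488 and 0.775. Between 50 and 100 CPM it was 0.442 and 0.725, and at 100 CPM or more 0.327 (15 members) and 0.719. The members' median varied from 0.479 to 0.525 over the 6 groups of guide and day. On chromosome 19 it was 0.486 with sgGal4 and 0.568 with sgDDX3 at day 3. These ratios use the same RNA libraries as the day 3 difference above, whose lower calls rest on single libraries. The median log2 difference of chromosome 19 members at day 3 was -0.21 in RNA and 0.01 in footprints. The ratios add no separate evidence.

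**Figure D5:**
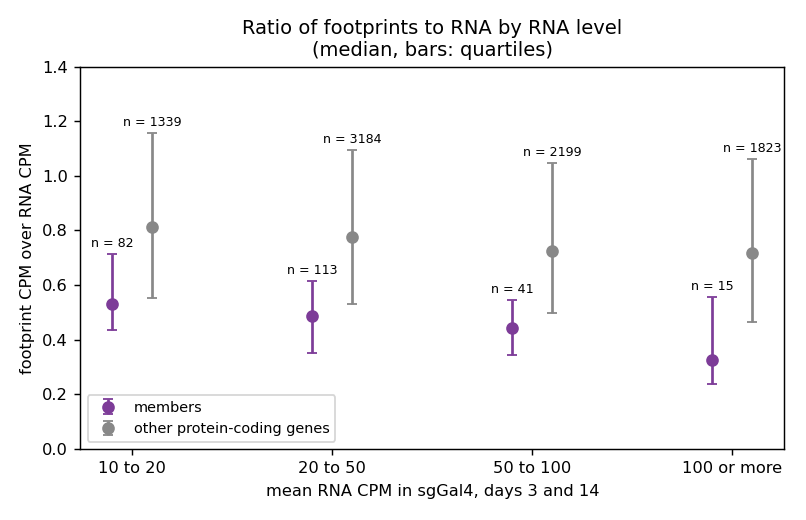
Median ratio of footprint CPM to RNA CPM in sgGal4 cells (mean of days 3 and 14) by RNA level, for members (purple) and other protein-coding genes (grey), with bars to the quartiles and the number of genes above. Members lie lower at each level, from 0.529 against 0.814 at 10 to 20 CPM to 0.327 against 0.719 at 100 CPM or more.

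The extremes of the ratio, among the 251 members with at least 50 footprint counts over the 4 libraries, were far apart. ZNF587 (0.0361), ZNF22 (0.0679), ZNF395 (0.0895), ZNF891 (0.0916) and ZNF621 (0.143) were lowest. ZNF587 on chromosome 19 had 36.5 and 37.7 CPM of RNA with sgGal4 at day 3 but 0.838 and 1.41 CPM of footprints, and ZNF621 had 13.9 CPM of footprints for 94.4 CPM of RNA. ZNF853 (3.76), ZNF324B (1.96), ZNF706 (1.38), ZNF669 (1.35) and ZNF330 (1.33) were highest. ZNF853 had 82.1 and 83.3 CPM of footprints for 19.9 and 18.2 CPM of RNA with sgGal4 at day 3, and lay above a ratio of 3 in each of the 6 groups. ZNF706 encodes a small protein with a single finger.

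The corepressors that KRAB proteins recruit moved both ways. Of a list of 42 KRAB corepressor and heterochromatin genes, 8 were higher and 7 lower in RNA at day 3, and 9 higher and 2 lower at day 14, by edgeR. These are 19.05% and 16.7% of the list at day 3, beside 7.68% and 6.39% of all genes tested and 12.7% and 10.7% of protein-coding genes at 10 CPM or more. At day 14 they are 21.4% and 4.76%, beside 8.44% and 6.18% of all genes tested and 12.7% and 9.29% of those protein-coding genes. At day 3 fewer genes of the list passed whichever library of the compared groups was left out. The day 14 count moved both ways with the library left out. GATAD2A (0.67 ± 0.08, SE) and MTA1 (0.53 ± 0.07), both subunits of the NuRD complex, were higher at day 3, as was CHD3 (0.41 ± 0.08), while the heterochromatin protein CBX5 (-0.50 ± 0.08) and the remodeller HELLS (-0.44 ± 0.09) were lower. TRIM28 itself was lower at day 3 (-0.28 ± 0.07; adjusted p = 0.0101 by edgeR), which did not pass in the fits that left out sgDDX3 replicate 1 (-0.20) or sgGal4 replicate 2 (-0.24), and it did not pass at day 14 (-0.11; adjusted p = 0.316). CHD4, the NuRD ATPase, was higher at day 14 in RNA (0.73 ± 0.09) and footprints (1.34 ± 0.16). GATAD2A had a lower efficiency at day 3 (-1.05 ± 0.14).

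In footprints 2 corepressors were higher and 1 lower at day 3, and 5 higher and 0 lower at day 14. The shares of the list are 4.76% and 2.38% at day 3, beside 1.55% and 2.25% of all genes tested, and 11.9% and 0% at day 14, beside 2.11% and 1.29%. Among protein-coding genes at 10 CPM or more 1.52% were higher and 4.06% lower at day 3, and 2.51% and 2.31% at day 14. At day 3 CHD4 (0.91) and CHD3 (0.59) were higher and SUMO3 (-0.57) lower, and the count of called genes was 0 without sgGal4 replicate 2 and 1 without sgGal4 replicate 1. At day 14 CHD4, ATRX (0.71), DNMT1 (0.80), MPHOSPH8 (0.90) and MORC2 (0.50) were higher. That count was 1 without sgGal4 replicate 1, 2 without sgDDX3 replicate 1 or sgGal4 replicate 2, and 3 without sgDDX3 replicate 2, and CHD4 passed in each. In efficiency 0 corepressors were higher and 4 lower at day 3, and 0 higher and 3 lower at day 14. The lower shares are 9.52% of the list beside 4.87% of all genes tested at day 3, and 7.14% beside 1.33% at day 14. Among protein-coding genes at 10 CPM or more 7.50% were lower in efficiency at day 3 and 2.07% at day 14. The day 3 count was 2 without sgDDX3 footprint replicate 2 or either sgGal4 footprint replicate, and the day 14 count was 1 without sgDDX3 footprint replicate 1 or sgGal4 RNA replicate 1.

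Between day 3 and day 14 in the sgGal4 cells no member passed by edgeR, in RNA (where 0.755% of all genes did, 0.651% higher and 0.104% lower) or in footprints (where 0.566% did, 0.273% higher and 0.293% lower). At an unadjusted p under 0.05 there were 51 members in RNA and 9 in footprints, and DESeq2 called 0 and 1. The RNA of chromosome 19 members had a median change of -0.11 in these control cells, with 80 of 99 below 0, while the other protein-coding genes of chromosome 19 had 0.07. At day 0, 0 members differed between the guides by edgeR in RNA (0.00547% of all genes passed) or footprints (0.0101%), with 8 and 11 at an unadjusted p under 0.05 and 0 by DESeq2 in both. The sgGal4 RNA libraries of day 0 chose the members, so that RNA count is a description.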

How the data were processed

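The tables hold whole-number counts per gene, which the authors deposited for 24 libraries. Cytosolic RNA was depleted of ribosomal RNA and sequenced with a directional kit, and footprints were cut with RNase I from cycloheximide-fixed ribosomes, per the labels' protocols. Cutadapt 3.4, Bowtie2 2.4.1, STAR 2.7.5a, DESeq2 and GRCh38 are named, without role or order, per the submitters' processing notes. Of the counter, its annotation and its strand setting nothing is given in the sources used here.

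From these counts, 45 duplicate rows of the Y pseudoautosomal region were left out. Each assay was fitted over its 12 libraries with edgeR 4.0.16 (TMM scaling, low-count filter at a minimum count of 10, quasi-likelihood test, R 4.3.3), so all groups share 1 estimate of the spread. Efficiency was the interaction of guide and assay over all 24 libraries. P-values were adjusted by the Benjamini-Hochberg method over all genes tested and called at 0.05, and standard errors are the log2 difference over the root of the F statistic. CPM are TMM-scaled, and ratios are footprint CPM over RNA CPM of group means. Alternatives were DESeq2 1.42.0, its size factors in edgeR, no low-count filter, a replicate block, each library left out, other CPM thresholds for members and, added after seeing the data, the newer edgeR fit. The code was tested on simulated data.

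The members and the lists were chosen with earlier results of these data known. Members were named by rule: the levels at both ends and at the threshold, up to 8 called members per direction and comparison whose groups did not overlap, the 5 highest and 5 lowest ratios, and up to 5 corepressors per comparison. The members that passed in every alternative, and ZNF8, ZNF83, ZNF121, ZNF598, ZNF622 and ZNF706, were named after their values were seen. Classes by KRAB domain and finger number were not analysed here.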

Additional observations from a re-analysis of the deposited data

How the results depend on the processing

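Counts of called members moved with single libraries and, in footprints and in sgGal4, with the low-count filter. With each library left out in turn, they ranged from 22 to 57 for RNA day 3 (58 with all), 16 to 54 for RNA day 14 (36), 1 to 7 for footprints day 3 (4), 0 to 1 for footprints day 14 (4), 6 to 20 for efficiency day 3 (13), 0 to 3 for efficiency day 14 (4), and 0 to 1 for RNA day 14 minus day 3 and for RNA in sgGal4 (0 each). On chromosome 19 at day 3 they ranged from 1 to 2 higher (2) and 0 to 24 lower (23, and 15 by DESeq2), and at day 14 from 1 to 18 lower (9). Elsewhere they ranged from 2 to 12 lower at day 3 (9), and at day 14 from 11 to 18 higher (20) and 3 to 17 lower (6). Without the low-count filter the counts were 1 for footprints day 0, 12 for footprints day 3, 9 for footprints day 14, 5 for RNA in sgGal4 and 3 for footprints in sgGal4. DESeq2 gave 2 for footprints day 14 and 1 for footprints in sgGal4, and 1 of the members at 20 CPM or more passed in footprints day 14. The median of members elsewhere ranged from -0.0556 (without sgDDX3 replicate 1) to 0.0196 (without sgGal4 replicate 1) at day 3, and was 0.00175 without sgDDX3 replicate 2, against -0.02 with all libraries. At day 14 it was -0.0294 without the low-count filter against 0.01. The cause was not tested. Within each assay, same-numbered libraries of different groups showed little shared deviation. The median correlation of deviations was -0.0047 in RNA and 0.0102 in footprints, where single values ran from -0.257 to 0.220. Whether an RNA and a footprint library of the same number came from the same culture was not checked. With a replicate block, 56 members were called in RNA day 3, 31 in RNA day 14, 4 in footprints at each day, 13 in efficiency day 3 and 4 in efficiency day 14. Of the values for single genes and sets, 929 kept their direction and call, 188 lost the call, 16 moved, 3 reversed and 1 gained the call. With 2 libraries per group and footprint libraries of 6.22e+06 to 1.52e+07 counts, a footprint difference that did not pass is not shown to be absent.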
